A study of Mus musculus with 13 samples.

Results

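Nearly all mitochondrial proteins are encoded in the nucleus, made in the cytosol and imported, and the transcripts of the machinery that imports them were compared here. The members were the protein-coding genes whose symbol begins with Tomm or Timm and a number, together with *Samm50*, *Mtx1*, *Mtx2*, *Pam16*, *Dnajc19*, *Grpel1*, *Hspa9*, *Pmpca*, *Pmpcb*, *Chchd4* and *Gfer*, with at least 10 reads summed over the libraries. Of 33618 genes in the count table, 33 met the rule. A further 3 genes with such a symbol did not, because *Tomm6* had 8 reads in all, *Timm8a2* had 2 and *Tomm20l* had 1. All 33 members passed the filter on low counts, which left 16753 genes to be tested.

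The libraries were made from whole parametrial white adipose tissue (pmWAT) of 13 mice, 1 library per mouse. All mice carried loxP sites around part of *Lmna* on both alleles (fl/fl), and all received tamoxifen at 50 mg/kg on 5 consecutive days from 12 to 14 weeks of age and were dissected 2 weeks later. The 7 fl/fl control mice lacked Cre, and the 6 iADKO mice also carried 1 copy of Adipoq-CreERT2, a tamoxifen-activated Cre driven from the adiponectin gene, which is active in adipocytes. *Lmna* encodes lamins A and C. The tissue that was sequenced therefore holds adipocytes, in which Cre acts, and stromal, endothelial and immune cells, in which it does not. The study gives pmWAT as the depot of females.

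Precursors first meet the TOM complex of the outer membrane, whose receptors hand them to the channel protein *Tomm40*. From there, proteins with a cleavable presequence pass through the TIM23 complex of the inner membrane, pulled by a motor built on the matrix chaperone *Hspa9*, and the processing peptidase removes the presequence. Barrel proteins go back into the outer membrane through the SAM complex, carriers are carried by small TIM chaperones to the TIM22 complex, and small cysteine-rich proteins are trapped in the intermembrane space by *Chchd4* and *Gfer*.

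Most genes of the presequence translocase, its motor and the processing peptidase were lower in iADKO pmWAT, and no gene of the outer membrane entry gate passed the test. In all, 13 of the 33 members fell (39.4%) and 0 rose at an adjusted p under 0.05 in edgeR's quasi-likelihood test. Over all genes tested, 16.3% were lower and 14.1% higher in iADKO, and the median log2 fold change was 0.033. Over the members the median was -0.18, 25 had a negative log2 fold change, and the range was -0.41 (*Pmpcb*) to 0.17 (*Timm10*). In DESeq2's Wald test 15 members were lower and 0 higher, and no member with a positive fold change had an unadjusted p under 0.05 in edgeR. By role, the lower members were 4 of 5 in the TIM23 complex, 4 of 5 in the motor, 2 of 2 in the processing peptidase, 2 of 8 in the TIM22 pathway, 1 of 3 in the SAM complex, 0 of 2 in the intermembrane space pair and 0 of 8 in the TOM complex. The differences between roles were not tested. A further fit used as a block the runs of numbers in the library names, which were taken here as animal numbers and grouped here. In it 3 of the 33 members stayed lower (*Timm17b*, *Timm21* and *Timm29*), against 7.17% of all genes. In that fit the share of members lower was thus close to the share of all genes. The other 10 calls were lost in that fit, among them *Timm23* (adjusted p = 0.14), *Timm44* (0.0648), *Grpel1* (0.0848), *Pmpca* (0.0565) and *Pmpcb* (0.0793). The log2 fold changes of these genes in that fit were -0.29, -0.19, -0.37, -0.32 and -0.41, in the same order. With no block they were -0.32, -0.23, -0.38, -0.34 and -0.41. The median over the members was -0.14 with the block. Mice of runs that hold 1 genotype do not inform the difference between genotypes in that fit.

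**Figure D1:**
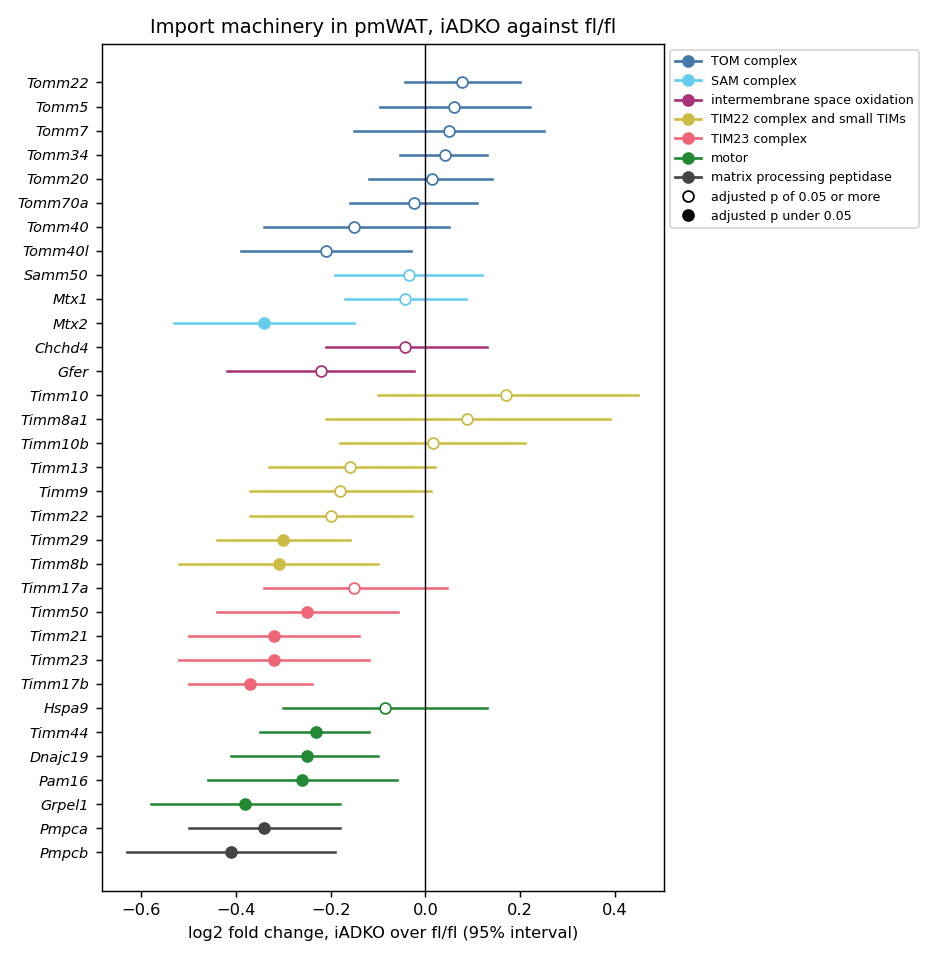
Log2 fold change of each of the 33 members (x axis, iADKO over fl/fl, edgeR, 7 and 6 mice) with its 95% interval, ordered and coloured by role (y axis). Filled points have an adjusted p under 0.05. All 13 filled points lie left of 0, between -0.41 and -0.23, and none is a TOM complex gene.

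*Lmna* levels were no lower in iADKO libraries (74.7 to 98.5 CPM in fl/fl and 80.1 to 109 CPM in iADKO, log2 fold change 0.19, adjusted p = 0.0785), so the level of the targeted gene did not separate the genotypes, and iADKO stands throughout for the libraries labelled so. Between 18854223 and 19776491 reads per library were counted on genes, and levels are given as CPM, counts scaled to a common library size, after TMM normalization. The 8 adipocyte markers all fell, from a summed level of 12581 to 23098 CPM in fl/fl to 8152 to 14060 CPM in iADKO. Of 9 macrophage markers 8 rose, with a summed level of 2022 to 5661 CPM in fl/fl and 3400 to 5863 CPM in iADKO. Of the other markers, 2 of 4 for B cells and 2 of 4 for T cells rose, 2 of 5 endothelial and 3 of 4 brown adipocyte markers fell, and none of 5 progenitor, 5 mesothelial or 5 fast muscle markers passed the test. No marker was at 0 in the libraries. In bulk tissue, fewer cells of a type and less RNA per cell cannot be told apart, and this holds for every level below.

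The bases around 1 motif of the members' promoters are shown because it is the most frequent of the 6 searched and is held by members that fell and by members that did not pass the test. It is CCGGAAG, the core bound by ETS factors, among them GABPA, a known regulator of nuclear genes for mitochondrial proteins. In RefSeq promoters (250 bases before to 50 after the start, table build GRCm38.p6), 29 of the 33 members had an entry, and *Tomm40l*, *Tomm7*, *Hspa9* and *Timm21* did not. CCGGAAG on either strand was found in 13 of the 29 (44.8%), against 9.93% of 27025 promoters in the table and 18.1% of the 11733 that belong to genes tested here. Each line gives 29 bases on the gene's strand, 5′ to 3′, around the match nearest the start, with matches in capitals (CTTCCGG is the same motif on the other strand). The match of *Timm10b* lies too near the window's end to be shown.
Grpel1: cacctcctcacCTTCCGGggctcccagaa
Mtx1: acgagaaggtgCTTCCGGgtcagagagcg
Mtx2: tgtcagcgacgCCGGAAGtgcttggtcgg
Pmpca: ggctcggcgggCCGGAAGccagcgccgaa
Pmpcb: ggagtcatgacCCGGAAGtacatctccac
Timm10: ggctagacttcCTTCCGGAAGtgacccac
Timm23: ggagccggcgcCCGGAAGgtcagcgtggt
Timm29: agctctgaccaCTTCCGGgctccactcac
Timm8b: tgaagcgtgaaCCGGAAGgcaggagacgg
Tomm22: gctctcttccgCTTCCGGtgtcctacagc
Tomm34: cgcagccctagCTTCCGGgtggaagctgt
Tomm70a: catgccccgggCTTCCGGtgacctctggc

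On GRCm39, where each promoter matched exactly at 1 place, the stretch of *Pmpca* is chr2:26279296-26279324 (plus strand), that of *Pmpcb* is chr5:21942131-21942159 (plus strand), that of *Timm23* is chr14:31923821-31923849 (minus strand) and that of *Tomm70a* is chr16:56942058-56942086 (plus strand). The first base of the match shown lies 53 bases before the RefSeq start in *Pmpca*, 16 before in *Pmpcb*, 8 before in *Tomm70a* and 11 after in *Timm23*. The motif was present in 7 of the 12 members with a promoter that fell and in 6 of the 17 that did not pass the test, and it occurs in the receptor genes *Tomm22* and *Tomm70a*, whose levels are given below. The difference between these shares was not tested. The other motifs were rarer. GCGCATGCG (NRF1) was found in *Timm13* alone, TCAAGGTCA (ERR) in *Timm8b* alone, AAGATGGCG (YY1) in *Mtx1* and *Timm50*, and TGACGTCA (CREB and ATF) in none. CACGTG (E-box) was found in *Timm10*, *Timm8a1*, *Timm9* and *Tomm20*, none of which passed the test. Of genes tested that had a promoter, 3.55%, 0.29%, 3.1%, 3.26% and 11.1% held these 5 motifs, in the same order, and both strands were searched. In the members no match of one motif overlapped a match of another. A match is a description of the sequence and not a site in use.

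Of the TIM23 complex, which moves presequence proteins across the inner membrane or into it, 4 of 5 genes fell, and the complex had a median log2 fold change of -0.32. *Timm17b*, a structural subunit encoded on the X chromosome, gave the clearest separation. Its levels in the 7 fl/fl mice were 22.6, 20.3, 22.2, 21.4, 19.5, 19.2 and 24.1 CPM (replicates 1 to 7). In the 6 iADKO mice they were 15.9, 15.6, 16.4, 17.3, 16.6 and 17 CPM (replicates 1 to 6). Every iADKO mouse was below every fl/fl mouse, and the mean went from 21.3 ± 1.78 (SD, n = 7) to 16.5 ± 0.656 (SD, n = 6) CPM, a log2 fold change of -0.37 (SE 0.0614, adjusted p = 0.000871). *Timm17b* and *Timm44* were the only members without overlap between genotypes in the direction of lower iADKO, while 3.93% of genes tested had this pattern. In the other direction 0 members and 2.71% of genes had it.

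*Timm23*, the channel-forming subunit, ran from 39 to 62.4 CPM in fl/fl (median 56.8) and from 40.4 to 49.4 CPM in iADKO (median 42.9). The ranges overlap only through fl/fl replicate 5, which at 39 CPM lay under all iADKO mice, and the log2 fold change was -0.32 (SE 0.0945, adjusted p = 0.0202). Processed pseudogenes up to 100% identical to *Timm23* over as many as 630 bases held at most 15 reads each in the count table, against 12467 for *Timm23*, and a *Vps4a* transcript model (14698 reads) is 98.0% identical over 444 bases. *Timm50*, the receptor that meets presequences in the intermembrane space, ran from 49.6 to 70.6 CPM (median 64.2) in fl/fl and from 45.2 to 62 CPM (median 51.1) in iADKO. The groups overlapped, and the log2 fold change of -0.25 passed narrowly (adjusted p = 0.0479). Without single mice *Timm50* was past the threshold in 2 of 13 fits, with adjusted p up to 0.112 in the others. *Timm21*, which links the complex to the TOM side and to respiratory chain assembly, was lower at 22 ± 3.1 against 27.4 ± 1.97 CPM (SD, n = 6 and 7, log2 fold change -0.32, adjusted p = 0.0119).

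*Timm17a*, the paralog of *Timm17b*, did not pass the test. It ran from 35 to 55.9 CPM (median 50.1) in fl/fl and from 40.2 to 49 CPM (median 42.4) in iADKO, so all 6 iADKO mice lay below the fl/fl median but inside the fl/fl range. Its log2 fold change was -0.15 (95% interval -0.34 to 0.046, adjusted p = 0.227). *Timm17a* was the more abundant of the pair per kilobase of canonical transcript in both genotypes, at 6.64 and 5.99 CPM per kb against 5.36 and 4.14 for *Timm17b*. The log2 ratio of *Timm17b* to *Timm17a* was -1.17 ± 0.22 in fl/fl and -1.40 ± 0.095 in iADKO (SD, n = 7 and 6), a difference of -0.23 (exact two-sided permutation p = 0.035, 0.105 after Benjamini-Hochberg adjustment over 6 paralog pairs). A difference between the pair was thus not shown after adjustment, and without fl/fl replicate 2 it was -0.28 with an adjusted exact p of 0.0325.

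**Figure D2:**
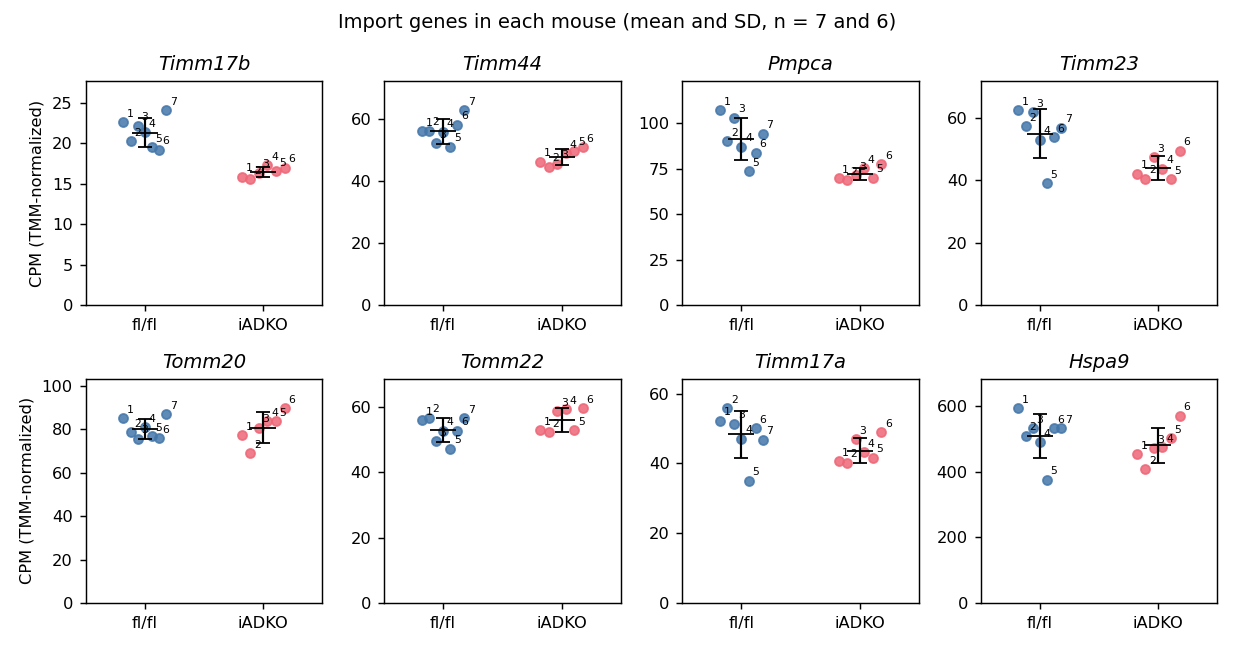
TMM-normalized level (y axis, CPM, from 0) of 8 members in each fl/fl and iADKO mouse (x axis, points numbered by replicate), with the mean and SD for 7 and 6 mice. *Timm17b* and *Timm44* do not overlap between genotypes, *Pmpca* and *Timm23* overlap through fl/fl replicate 5, and the ranges of *Tomm20*, *Tomm22*, *Timm17a* and *Hspa9* overlap through more than 1 mouse.

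In the import motor, 4 of 5 genes fell and the median log2 fold change was -0.25. *Timm44*, which tethers the motor to the channel, was 56, 56.2, 52.1, 55.7, 51, 58.1 and 62.8 CPM in fl/fl replicates 1 to 7. In iADKO replicates 1 to 6 it was 46.2, 44.6, 45.6, 48.9, 49.8 and 50.9 CPM. The groups did not overlap, although the highest iADKO mouse lay close to the lowest fl/fl mouse, and the log2 fold change was -0.23 (SE 0.0539, adjusted p = 0.00614).

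*Grpel1*, the nucleotide exchange factor that resets *Hspa9*, had the largest fall in the motor. It ran from 51 to 77.7 CPM (median 71) in fl/fl and from 45.2 to 63.7 CPM (median 52.4) in iADKO, with a log2 fold change of -0.38 (SE 0.0946, adjusted p = 0.00878). Only fl/fl replicate 5 was below the highest iADKO mouse. Of its annotated exon bases 23.1% lie opposite *Tada2b*, which was itself lower (-0.21, adjusted p = 0.0183), and its part in the fall of *Grpel1* was not tested. *Dnajc19*, a J-domain partner of *Hspa9*, ran from 20.5 to 26.5 CPM (median 24) and from 17.5 to 22.6 CPM (median 19.8), and 4 of 6 iADKO mice were below all fl/fl mice (log2 fold change -0.25, adjusted p = 0.0165). *Pam16*, which holds the J-domain proteins at the channel, had 15.2 ± 1.4 and 12.7 ± 1.75 CPM (SD, n = 7 and 6, log2 fold change -0.26, adjusted p = 0.0489). With each mouse omitted in turn, *Pam16* stayed past the threshold in 4 of 13 fits (adjusted p up to 0.106 in the others), and a near copy, *Pam16l*, held 36 reads against 3527. In addition, 56.7% of its annotated exon bases, over all transcripts, lie under *Glis2* on the opposite strand (log2 fold change 0.096). Library preparation was strand-specific, but the strand setting of the counting is not given in the sources used here.

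*Hspa9*, the matrix Hsp70 that drives the motor and has other roles in folding, did not pass the test. It was by far the most abundant member per length, at 150 CPM per kb in fl/fl and 142 in iADKO. It ran from 376 to 594 CPM (median 532) in fl/fl and from 408 to 571 CPM (median 474) in iADKO, with overlapping ranges and a log2 fold change of -0.085 (95% interval -0.30 to 0.13, adjusted p = 0.537). The interval includes falls as large as that of *Timm44*, so *Hspa9* and its partners are not shown to differ.

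*Grpel1* has a paralog, *Grpel2*, which is outside the rule and was 19.7 ± 1.3 CPM in fl/fl and 20.5 ± 0.518 CPM in iADKO (SD, n = 7 and 6, log2 fold change 0.057, adjusted p = 0.426). The log2 ratio of *Grpel2* to *Grpel1* went from -1.78 ± 0.22 to -1.34 ± 0.19 (SD, n = 7 and 6), a difference of 0.44 (exact two-sided permutation p = 0.00583, adjusted over 6 pairs 0.035). All 6 iADKO mice were above the fl/fl median, but the groups overlapped. The difference was 0.38 to 0.51 without single mice, and the adjusted exact p was then 0.013 to 0.0758, above 0.05 without fl/fl replicates 1, 3, 4, 6 or 7 or iADKO replicates 1, 2, 3 or 5. For *Dnajc15* to *Dnajc19* the difference in log2 ratio was -0.027, for *Mtx3* to *Mtx2* 0.15, for *Tomm40l* to *Tomm40* -0.071 and for *Timm10b* to *Timm10* -0.17, with adjusted exact permutation p from 0.319 to 0.794.

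**Figure D3:**
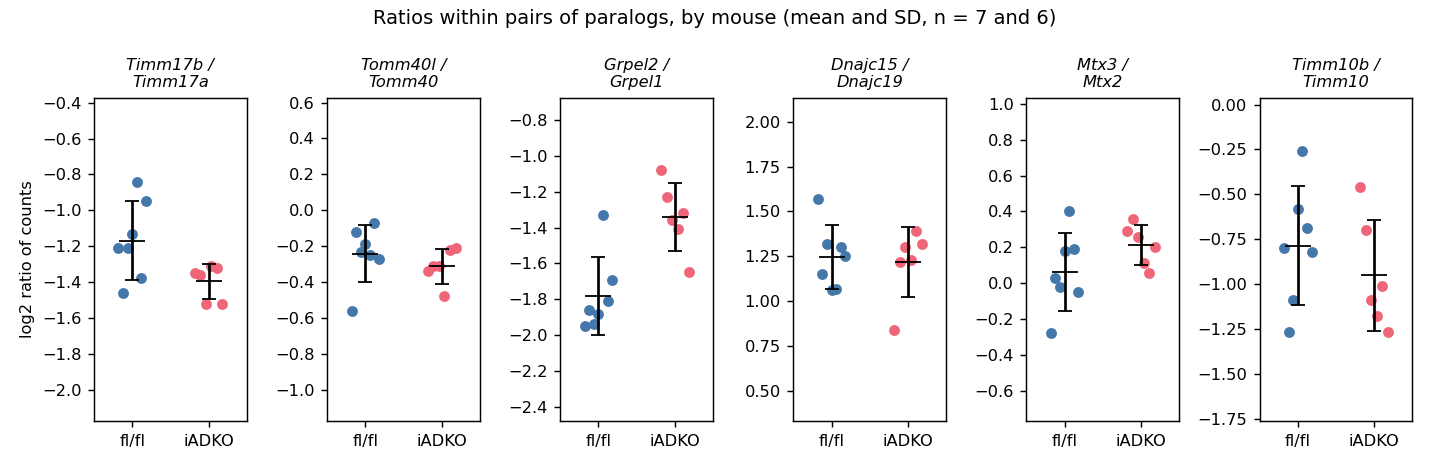
Log2 ratio of counts within 6 pairs of paralogs (y axes, each spanning the same number of log2 units) in each fl/fl and iADKO mouse (points), with the mean and SD for 7 and 6 mice. *Grpel2* to *Grpel1* is higher in iADKO by 0.44, and in every pair the genotypes overlap.

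Both subunits of the matrix processing peptidase, which cuts off presequences, fell. *Pmpca*, the substrate-binding subunit, ran from 73.7 to 107 CPM (median 89.9) in fl/fl and from 68.7 to 77.5 CPM (median 70.5) in iADKO, and its log2 fold change was -0.34 (SE 0.0763, adjusted p = 0.00488). *Pmpcb*, the catalytic subunit, ran from 65.6 to 106 CPM (median 95.1) and from 59.8 to 83.2 CPM (median 69.7), and with -0.41 (SE 0.103, adjusted p = 0.00955) it had the largest fall of all members. In each gene 6 of 7 fl/fl mice were above every iADKO mouse, and the exception was fl/fl replicate 5. In percent, *Pmpca* fell by 21.0% and *Pmpcb* by 24.5%.

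In the TIM22 pathway, which inserts carrier proteins into the inner membrane, 2 of 8 genes fell and the median log2 fold change was -0.17. *Timm29*, a subunit of the complex that contacts the TOM side, was at 57.4 to 78 CPM (median 74.8) in fl/fl and at 57.3 to 62.3 CPM (median 58.1) in iADKO. It was lower by -0.30 on the log2 scale (SE 0.0645, adjusted p = 0.00376), and again only fl/fl replicate 5 reached into the iADKO range. *Timm8b*, a small TIM chaperone, was lower at 22.6 ± 2.93 against 28 ± 3.46 CPM (SD, n = 6 and 7, log2 fold change -0.31, adjusted p = 0.0288). Its exon bases are 63.2% shared with *Nkapd1* on the opposite strand, whose log2 fold change was -0.0056, and leaving out fl/fl replicate 1 or 7 or iADKO replicate 1 or 2 took *Timm8b* past an adjusted p of 0.05 (0.053 to 0.0655).

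*Timm22*, the channel of this pathway, ran from 16.8 to 25.2 CPM (median 21.3) in fl/fl and from 17.6 to 19.6 CPM (median 19.1) in iADKO. All 6 iADKO mice lay below the fl/fl median, and the log2 fold change of -0.20 did not pass the adjusted threshold (95% interval -0.37 to -0.028, adjusted p = 0.0723). Of its exon bases, 32.1% lie opposite *Abr*, which was higher in iADKO (0.45, adjusted p = 0.00789). The hexamer-forming chaperones *Timm9* and *Timm10* had log2 fold changes of -0.18 (adjusted p = 0.14) and 0.17 (adjusted p = 0.326). *Timm13*, the partner chaperone of the Timm8 proteins, had -0.16 (adjusted p = 0.165), *Timm10b*, which docks the chaperones at the complex, 0.017 (adjusted p = 0.90) and *Timm8a1* 0.088 (adjusted p = 0.655). *Timm8a1* was the scarcest member, at 0.49 CPM per kb in fl/fl and 0.521 in iADKO, and its interval was wide (-0.21 to 0.39).

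None of the 8 genes of the TOM group fell or rose in edgeR, and their median log2 fold change was 0.027. *Tomm40l* had an unadjusted p of 0.0255 and was the single gene of the group called lower by DESeq2. The presequence receptor *Tomm20* ran from 75.7 to 87 CPM (median 78.8) in fl/fl and from 69.1 to 89.9 CPM (median 82.3) in iADKO. The central receptor *Tomm22* ran from 47.2 to 56.7 CPM (median 52.8) and from 52.3 to 59.7 CPM (median 55.8). The receptor *Tomm70a*, which takes carriers and their chaperones, ran from 75.5 to 98.3 CPM (median 86) and from 77.9 to 91 CPM (median 85.2). The genotypes overlapped in all of these receptors, and a near-identical pseudogene of *Tomm20* held 81 reads against 20331. The 95% intervals of their log2 fold changes were -0.12 to 0.14 for *Tomm20*, -0.044 to 0.20 for *Tomm22* and -0.16 to 0.11 for *Tomm70a*. None of them holds the log2 fold change of *Timm44* (-0.23). The interval of *Timm44* was itself -0.35 to -0.12, and a difference between it and the receptors was not tested.

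*Tomm40*, the channel of the outer membrane, ran from 36.1 to 57.1 CPM (median 47.4) in fl/fl and from 35.5 to 45.6 CPM (median 42.1) in iADKO. All iADKO mice were below the fl/fl median, and the log2 fold change was -0.15 (95% interval -0.34 to 0.049, adjusted p = 0.237). Its paralog *Tomm40l* had -0.21 (95% interval -0.39 to -0.03, adjusted p = 0.072), and 61.0% of its exon bases lie opposite *Nr1i3*. Both channel genes had intervals that include the log2 fold change of *Timm44*, and whether they differ from the receptors was not tested. The small subunits *Tomm5* and *Tomm7*, which assemble and stabilize the complex, had 0.061 (adjusted p = 0.551) and 0.05 (adjusted p = 0.707), and *Tomm34*, a cytosolic chaperone partner of the pathway, 0.041 (adjusted p = 0.499). Per kilobase in fl/fl, *Tomm22* (33.8 CPM per kb) and *Tomm7* (32.0) were the highest of the group, *Tomm40* (27.4) and *Tomm5* (23.4) came next, and *Tomm20* (16.0), *Tomm34* (14.2), *Tomm70a* (13.9) and *Tomm40l* (8.23) were the lowest.

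In the SAM complex, the metaxin *Mtx2* fell, from 28.4 to 44.8 CPM (median 37.2) in fl/fl to 25.7 to 32.2 CPM (median 28.6) in iADKO. Only fl/fl replicate 5 was inside the iADKO range, and the log2 fold change was -0.34 (SE 0.0879, adjusted p = 0.0106). *Samm50*, the channel that inserts barrel proteins, ran from 73.6 to 92.2 CPM (median 86.2) and from 73.2 to 98.9 CPM (median 81.6), with -0.034 (95% interval -0.19 to 0.12, adjusted p = 0.74). The other metaxin, *Mtx1*, had -0.042 (95% interval -0.17 to 0.086, adjusted p = 0.62). Whether *Mtx2* differs from *Mtx1* or *Samm50* was not tested.

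In the intermembrane space pair, neither gene passed the test. *Chchd4*, the oxidoreductase that folds cysteine-rich imports, ran from 15.2 to 21.7 CPM (median 19.2) in fl/fl and from 16.2 to 20.9 CPM (median 18.1) in iADKO, with a log2 fold change of -0.042 (95% interval -0.21 to 0.13, adjusted p = 0.708). *Gfer*, the sulfhydryl oxidase that reoxidizes it, ran from 18.6 to 30 CPM (median 24) and from 19.1 to 24.7 CPM (median 20.5), with -0.22 (95% interval -0.42 to -0.025, unadjusted p = 0.0301, adjusted p = 0.0811). DESeq2 called neither. *Chchd4* shares 25.9% of its annotated exon bases with *Tmem43* on the opposite strand, which was at 411 CPM in fl/fl and 339 CPM in iADKO (-0.28, adjusted p = 0.0667). A stretch of a *Dst* transcript model is 99.8% identical to *Gfer* over 573 bases, so reads of that stretch may be shared.

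Mouse by mouse, the members moved together in some libraries. As the mean over the 33 members of the log2 difference from the fl/fl mean, the fl/fl mice ran from -0.018 to 0.11 apart from replicate 5 at -0.26, in which 31 of 33 members were below the fl/fl mean. The iADKO mice ran from -0.26 to -0.11 apart from replicate 6 at -0.0081, with 16 of 33 below. In each of the 6 iADKO mice the mean over the TIM23, motor and peptidase genes (-0.43 to -0.092) was lower than that over the TOM genes (-0.14 to 0.093). In fl/fl replicate 5 these means were -0.30 and -0.18.

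**Figure D4:**
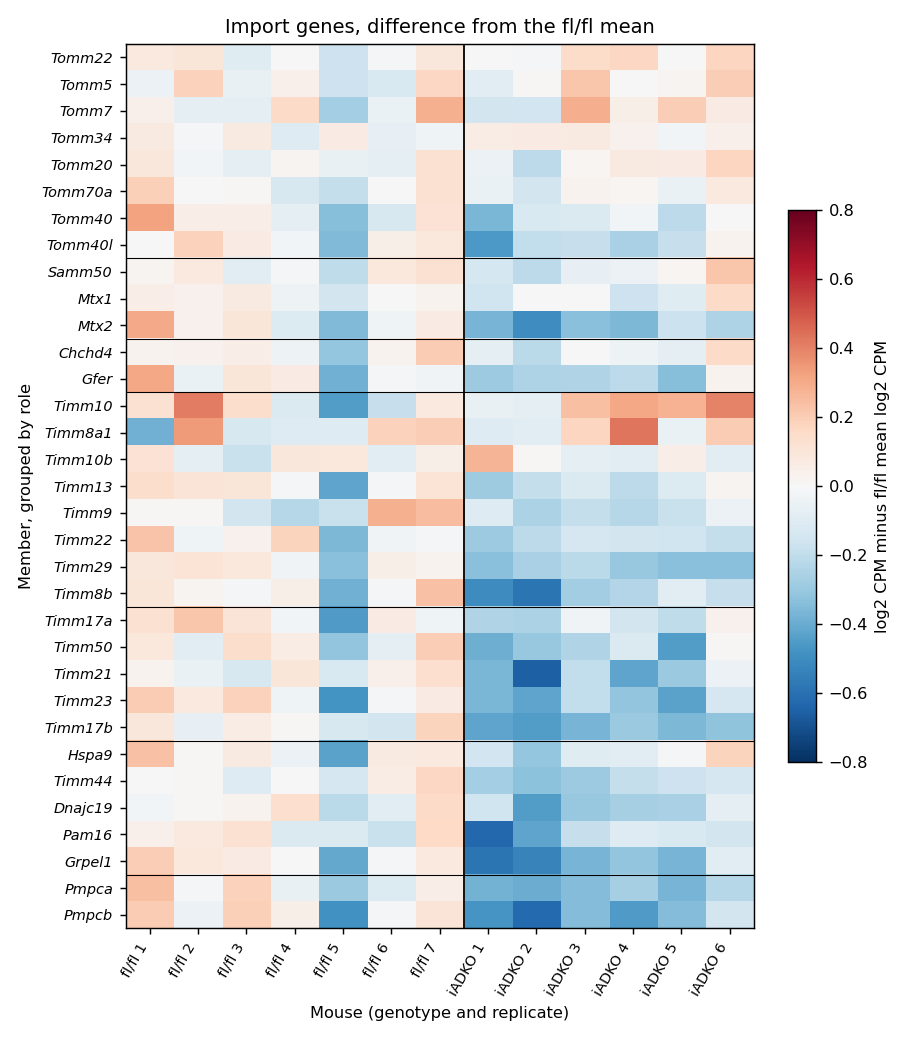
Log2 CPM of each of the 33 members (rows, grouped by role, TOM at the top and peptidase at the bottom) minus the fl/fl mean, in each of the 13 mice (columns). Blue is lower and red is higher. The blue in the iADKO columns lies mostly in the lower rows (TIM23, motor, peptidase), and fl/fl replicate 5 is blue in nearly all rows.

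These libraries also stood apart in the cell type markers. Relative to the fl/fl mean, the adipocyte score (mean log2 difference of the 8 markers) was -0.57 in fl/fl replicate 5 and -0.024 to 0.37 in the other fl/fl mice, and it was -0.50 in iADKO replicate 6 and -1.15 to -0.84 in the other iADKO mice. The macrophage score was 0.74 in fl/fl replicate 5, -0.34 to 0.37 in the other fl/fl mice, 0.23 in iADKO replicate 6 and 0.74 to 1.02 in the other iADKO mice. With the macrophage score as a covariate 0 members were lower (2 at an unadjusted p under 0.05) and their median log2 fold change was 0.016. With the adipocyte score as a covariate 0 were lower (0 unadjusted) and the median was 0.16. The adipocyte scores of the genotypes overlap only through these mice, so the genotype and the cell make-up of the tissue cannot be told apart here. Without fl/fl replicate 5, 18 members were lower, the added genes being *Gfer*, *Timm13*, *Timm17a*, *Timm22* and *Tomm40l*, and without iADKO replicate 6, 15 were lower. The share of all genes called lower was not counted in these fits or in the covariate fits. The changes in number are therefore not shown to be particular to the members.

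The numbers in the library names were taken here as animal numbers and were cut here into 4 runs. The sample titles do not name such runs. Of the 4 runs, 2 hold both genotypes. In the run with 3 fl/fl and 2 iADKO mice the median log2 difference was -0.34 over the members and 0.029 over all genes tested. It was -0.53 over the 13 that fell (13 of 13 negative) and -0.12 over the TOM genes. The 13 were called with these same mice included, so their signs within a run are no separate support. In the run with 2 and 2 mice, to which fl/fl replicate 5 and iADKO replicate 6 belong, the median was 0.067 over the members. It was 0.0061 over all genes tested, -0.071 over the 13 (10 of 13 negative) and 0.15 over the TOM genes (0 of 8 negative). The size of the fall thus did not hold between these runs. The TIM23, motor and peptidase genes had medians of -0.46 (12 of 12 negative) and -0.04 (7 of 12 negative), below the TOM genes in both. In the run with 2 and 2 mice their median was near that of all genes, and the TOM genes were higher. In the edgeR fit with the run as a block, 12 members had a fall with an unadjusted p under 0.05, and the share of all genes at that cut-off was not counted. At an adjusted p under 0.05 in the same fit, 3 of 33 members and 7.17% of all genes were lower. The labels give the same batch date for all 13 libraries.

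Beyond the rule, other genes of import and of its clients were counted in the same fit, from lists given here for comparison. Of 19 tested import genes outside the rule (insertases, peptidases and accessory factors) 11 fell, 0 rose and the median log2 fold change was -0.28. *Immp2l*, a subunit of the inner membrane peptidase, had by far the largest fall, from 13.4 ± 2.19 to 5.23 ± 1.39 CPM (SD, n = 7 and 6, -1.36, adjusted p = 0.000168), with all iADKO mice below all fl/fl mice. *Aifm1*, which anchors *Chchd4*, fell by 0.62 on the log2 scale (adjusted p = 0.000321), and *Mtch2*, an outer membrane insertase, by 0.63 (adjusted p = 0.00133).

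Of 12 mitochondrial chaperones and proteases, most of them in the matrix and some (*Yme1l1*, *Oma1* and *Htra2*) facing the intermembrane space, 8 fell and 0 rose (median -0.30). *Trap1*, a matrix Hsp90, had -0.62 (adjusted p = 0.000748), the protease subunit *Clpp* -0.45 (adjusted p = 0.00161) and the inner membrane protease subunit *Afg3l2* -0.34 (adjusted p = 0.00341). All 7 MICOS genes, which shape the cristae, fell (median -0.52), led by *Chchd3* (-0.56, adjusted p = 0.000676), *Apool* (-0.55, adjusted p = 0.00155) and *Apoo* (-0.70, adjusted p = 0.00324). Of 15 twin-cysteine proteins imported by *Chchd4*, 5 fell and 0 rose (median -0.21), with the smallest adjusted p for *Chchd2* (-0.55), *Coa5* (-0.35) and *Cox6b1* (-0.37).

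Of the 3 outer membrane channels, *Vdac1* fell (-0.34, adjusted p = 0.00387), and *Vdac2* (-0.11, adjusted p = 0.168) and *Vdac3* (-0.12, adjusted p = 0.183) did not pass the test. Of the nuclear oxidative phosphorylation subunits, 62 of 84 fell and 2 rose (median -0.37), with *Sdha*, *Sdhb* and *Ndufs1* first by adjusted p. This list also holds some of the twin-cysteine proteins counted above, such as *Cox6b1*. Of 77 mitochondrial ribosomal proteins, 31 fell and 0 rose (median -0.20), with *Mrpl37*, *Mrpl49* and *Mrpl17* first. The members of the import machinery thus had a median fall like that of the ribosomal proteins and smaller than that of the respiratory subunits, which is a description and was not tested.

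Among 13 tested regulators of nuclear mitochondrial genes and of mitochondrial stress, 4 rose and 2 fell (median 0.071). *Ddit3*, a stress transcription factor, was at 7.25 ± 0.87 CPM in fl/fl and 10.9 ± 0.874 CPM in iADKO (SD, n = 7 and 6, 0.59, adjusted p = 0.000585). *Gabpb1*, the partner of GABPA in the factor that binds CCGGAAG, was at 16 ± 1.01 and 20.6 ± 1.03 CPM (SD, n = 7 and 6, 0.37, adjusted p = 0.00063). *Myc* was at 17.5 ± 1.98 and 25.4 ± 2.87 CPM (SD, n = 7 and 6, 0.54, adjusted p = 0.000752). In all of these genes every iADKO mouse was above every fl/fl mouse, which 2.71% of genes tested also showed. *Pprc1* also rose (0.40, adjusted p = 0.00737), and the genes that fell were *Esrra* (-0.23, adjusted p = 0.0115) and *Atf5* (-0.25, adjusted p = 0.0354). *Gabpa* itself (0.028, adjusted p = 0.648) and *Gabpb2* (0.071, adjusted p = 0.372) did not pass the test.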

How the data were processed

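RNA from whole pmWAT of 13 mice was sequenced as strand-specific, paired-end mRNA libraries. Per the submitters' processing notes, FastQC 0.12.1, STAR 2.7.11a and DESeq2 were used with build mm39. The counting tool and its strand setting are not given in the sources used here. The authors deposited raw counts per Ensembl gene, without normalization, and log2 values made from them with DESeq2's regularized log (rlog). Genotypes came from the sample titles, and each library is a separate mouse.

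Symbols were taken from GENCODE vM39 (33184 of 33618 identifiers matched, GRCm39). In R 4.3.3, counts were filtered with filterByExpr of edgeR 4.0.16 (16753 genes left), normalized by TMM (factors 0.892 to 1.10) and compared between genotypes with the robust quasi-likelihood test, with Benjamini-Hochberg adjustment over all genes tested and a threshold of 0.05. CPM are TMM-normalized, and levels per kb use the canonical transcript. Standard errors came from the fold change and the test statistic, and intervals are 95%. Paralog ratios used counts plus a prior of 2 and exact two-sided permutation tests over mice. On simulated counts for this comparison (16613 genes, 200 changed), 47.6% of changes of 0.5 on the log2 scale and 81.1% of changes of 1 were recovered, and 4.51% of calls were false. A much larger share of genes was called in the data (16.3% lower and 14.1% higher), so these rates need not hold there. Between mice of 1 genotype, chi-square over its degrees of freedom was 8.84 to 99.9, above sampling noise, so no library was counted as a copy of another.

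The members, lists, motifs and cell type markers were chosen with earlier results of these data known. Every member is named, and of each other list the 3 genes with the smallest adjusted p. Of the regulators, *Pprc1*, *Esrra*, *Atf5*, *Gabpa* and *Gabpb2* are named as well. Alternatives were DESeq2 1.42.0 (size factors, or its Wald test), other count filters, limma 3.58.1 on the rlog values, normalization without mitochondrially encoded genes, blocks for replicate number or animal-number run, marker scores as covariates, and each mouse left out. Near copies were counted at 95% identity over 300 bases. Protein sequences were not used here.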

Additional observations from a re-analysis of the deposited data

Results flagged for a closer look

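In 8 of 66 combinations of member and genotype, 1 mouse lay far from the others by Dixon's criterion, and chance alone flags about 1 in 20 groups. In 6 of these the mouse was fl/fl replicate 5, as the lowest. It had 51 CPM of *Grpel1* (next lowest 67.3), 65.6 CPM of *Pmpcb* (next 88.8), 30.8 CPM of *Timm13* (next 41), 39 CPM of *Timm23* (next 53), 57.4 CPM of *Timm29* (next 71.1) and 30.3 CPM of *Tomm40l* (next 38.1). Its adipocyte and macrophage marker scores also lay outside those of the other fl/fl mice. In iADKO, replicate 6 was highest for *Gfer* at 24.7 CPM (next 21), and replicate 1 was highest for *Timm10b* at 6.23 CPM (next 5.35).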

How the results depend on the processing

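The 13 members that fell stayed past the threshold with DESeq2's size factors, with at least 10 counts in every sample, on the rlog values and without mitochondrially encoded genes (13 each), and in DESeq2's Wald test (15, adding *Timm22* and *Tomm40l*). With no filter on low counts 12 did, without *Pam16*. With each mouse left out the count was 10 to 18, and 0 members rose in any of these fits. Without single mice *Pam16* (9 of 13 fits), *Timm50* (11) and *Timm8b* (4) lost their calls. The count moved by more than 1.5 times with the animal-number run as a block (3) and with the macrophage or the adipocyte score as a covariate (0 each, with 2 and 0 at an unadjusted p under 0.05). The cause was not tested, and the share of all genes called was not counted for the covariate fits or the fits without single mice.

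Replicate numbers were not taken to pair the mice. The correlation of residuals of same-numbered mice was -0.0265 to 0.217 and above 0.1 in 3 of 6 pairs. Its mean was 0.107, against -0.02 for other pairs of mice. With the replicate block, without fl/fl replicate 7, 9 members were lower, all among the 13, without *Dnajc19*, *Pam16*, *Timm50* and *Timm8b*, and 10 were lower in the same mice with no block. The difference in the *Grpel2* to *Grpel1* ratio was 0.45 with the block (adjusted exact permutation p = 0.188, where the smallest unadjusted sign-flip p is 0.0312) and 0.38 to 0.51 without single mice. That of *Timm17b* to *Timm17a* was -0.28 to -0.17 without single mice, and that of *Dnajc15* to *Dnajc19* was -0.062 to 0.048 without single mice (0.028 without fl/fl replicate 1).

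Signs turned as follows, as log2 fold changes. With the adipocyte score they were 0.32 for *Chchd4*, 0.016 for *Dnajc19*, 0.34 for *Gfer*, 0.14 for *Grpel1*, 0.46 for *Hspa9*, 0.20 for *Mtx1*, 0.086 for *Mtx2*, 0.08 for *Pmpca*, 0.21 for *Pmpcb*, 0.22 for *Samm50*, -0.061 for *Timm10b*, 0.28 for *Timm13*, 0.35 for *Timm17a*, 0.14 for *Timm22*, 0.27 for *Timm23*, 0.19 for *Timm50*, 0.0016 for *Timm8b*, 0.28 for *Tomm40*, 0.12 for *Tomm40l* and 0.26 for *Tomm70a*. With the macrophage score they were 0.11 for *Chchd4*, 0.083 for *Gfer*, 0.22 for *Hspa9*, 0.11 for *Mtx1*, 0.11 for *Samm50*, -0.064 for *Timm10b*, 0.095 for *Timm13*, 0.16 for *Timm17a*, 0.03 for *Tomm40*, 0.016 for *Tomm40l* and 0.079 for *Tomm70a*. With the run block they were 0.0063 for *Chchd4*, -0.0056 for *Tomm20*, -0.016 for *Tomm7* and 0.0036 for *Tomm70a*. *Tomm20* was -0.0021 in DESeq2's Wald test, -0.002 with its size factors, -0.0058 on rlog values and -0.00079 with no filter, and *Timm10b* was -0.0011 on rlog values. Without single mice the ranges that crossed 0 were -0.091 to 0.0011 for *Samm50*, -0.035 to 0.041 for *Timm10b*, -0.021 to 0.056 for *Tomm20*, -0.001 to 0.10 for *Tomm7* and -0.05 to 0.0084 for *Tomm70a*.

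The spread between mice limits the rest. The simulation, which changed 200 of 16613 genes, recovered 47.6% of changes of 0.5 on the log2 scale. In the data 16.3% of genes were called lower and 14.1% higher, so that share need not hold here. Every member's change was smaller than 0.5, and a member that did not pass is not shown to be unchanged.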
